A study of Mus musculus with 6 samples.

Results

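The genes described here are those that encode the proteins of the cytosolic ribosome, followed through A375 melanoma tumours grown in mice given ZLD1039 or vehicle. They were chosen by a list of 50 human Ensembl identifiers of RPL, RPS and RPLP genes, and every transcript event that carries one of these identifiers was taken. Events of 39 of the 50 were listed in at least 1 tumour and events of 38 in all 6, among 15234 loci in all. These loci held 601 of the 175128 distinct events of the series.

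A375 is an established human melanoma cell line, and the tumours grew under the skin of BALB/c nude mice, a strain that lacks a normal thymus. ZLD1039 inhibits EZH2, the enzyme of Polycomb repressive complex 2 that methylates histone H3 at gene promoters. One group received ZLD1039 at 100 mg/kg and the other vehicle, both by mouth once a day for 27 days, with 5 mice per group and tumours of 3 sequenced. Both groups carried the same line, labelled wild type, and their labels differ in the treatment alone. Separate mice for the 3 tumours of a group are not stated outright, and p-values below therefore reflect only how much these tumours varied, which may be technical.

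A ribosome consists of a large and a small subunit, in which ribosomal RNA is packed with proteins of the RPL and RPS families. The RPLP proteins form the stalk of the large subunit, which recruits and activates the elongation factors. Growing cells make the messenger RNAs of these proteins in large amounts and in near-equal proportion, from genes that are mostly short, and control their translation together through a pyrimidine-rich tract at the very start of the message. Introns of several such genes carry small nucleolar RNAs, and most of the genes have many processed copies elsewhere in the genome whose sequence is nearly the same. Which reads the authors placed on such copies is not given in the sources used here, so the level of any 1 locus is uncertain to that extent.

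The files list, for each tumour, transcript events with an abundance in FPKM, which counts sequenced fragments relative to transcript length and to library size. They cover transcription starts, transcript ends, included or skipped exons and retained or spliced introns. The abundance of a locus was taken as the largest of its summed starts, its summed ends and its largest event. Values of loci summed to between 225630 and 269196 FPKM per tumour. The number of sequenced fragments is unknown, and no counting error can be given. ZLD1039 tumour 2 stood apart from the rest, at 51.9 on the first principal component against -13.3 to -4.02 for the other 5. Positions are human although the labels name the mouse, and they are printed as the files give them with no build named. The files pair no gene names with the identifiers, so the loci are named by identifier. Mouse reads placed on these loci cannot be told apart from human ones.

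Ribosomal protein transcripts were among the most abundant in every tumour. The 38 loci listed in all 6 tumours had mean abundances between 99.2 and 1444 FPKM, with a median of 487 FPKM against 8.01 FPKM over the 10834 loci tested. The least abundant of the 38 still lay at percentile 96.9 of all tested loci. Of the 54 tested loci with a mean of at least 500 FPKM, 18 were ribosomal protein loci. The 38 lay on 17 chromosomes, with 5 on chromosome 19 and 4 on chromosome 17. Their listed span was short, with a median of 4301.5 bases against 30104.5 bases over the tested loci.

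The most abundant locus was ENSG00000138326 (chromosome 10, 79793518 to 79814434, plus strand). It measured 1402, 1336 and 1229 FPKM in vehicle tumours 1, 2 and 3 and 1606, 1735 and 1352 FPKM in ZLD1039 tumours 1, 2 and 3. It was the highest of the 38 in each of the 6 tumours, and its groups overlapped. Next by mean came ENSG00000125691 (chromosome 17, 37004118 to 37010017, minus strand) at 1012 FPKM, ENSG00000161016 (chromosome 8) at 954 FPKM, ENSG00000231500 (chromosome 6) at 922 FPKM and ENSG00000137154 (chromosome 9) at 900 FPKM. ENSG00000125691 ranged from 846 to 1160 FPKM and ENSG00000231500 from 824 to 1045 FPKM, while ENSG00000161016 went from 649 FPKM in vehicle tumour 2 to 1233 FPKM in ZLD1039 tumour 2. The order of these 4 changed from tumour to tumour, and the means of neighbours in it differed by less than the range over tumours.

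At the low end, ENSG00000197756 (chromosome 2, 217362648 to 217443903, plus strand) had a mean of 99.2 FPKM and ENSG00000105372 (chromosome 19, 42363988 to 42376994, plus strand) one of 126 FPKM. ENSG00000071082 followed at 143 FPKM, ENSG00000177600 at 161 FPKM and ENSG00000172809 at 165 FPKM. The most and the least abundant locus thus differed 14.6-fold. FPKM is scaled to transcript length, but near-identical copies, host reads and the choice of locus value leave comparisons between loci uncertain. One further locus, ENSG00000140988, had a single listed value, 5.52 FPKM in vehicle tumour 1, from a listed stretch of 345 bases on chromosome 16.

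In all, 11 identifiers of the list had no row in any tumour and were not analysed here. They were ENSG00000008988, ENSG00000063177, ENSG00000100316, ENSG00000110700, ENSG00000122406, ENSG00000142534, ENSG00000142937, ENSG00000144713, ENSG00000145425, ENSG00000171863 and ENSG00000188846. A locus that is not listed need not be silent, and no level of 0 was given to these 11.

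**Figure D1:**
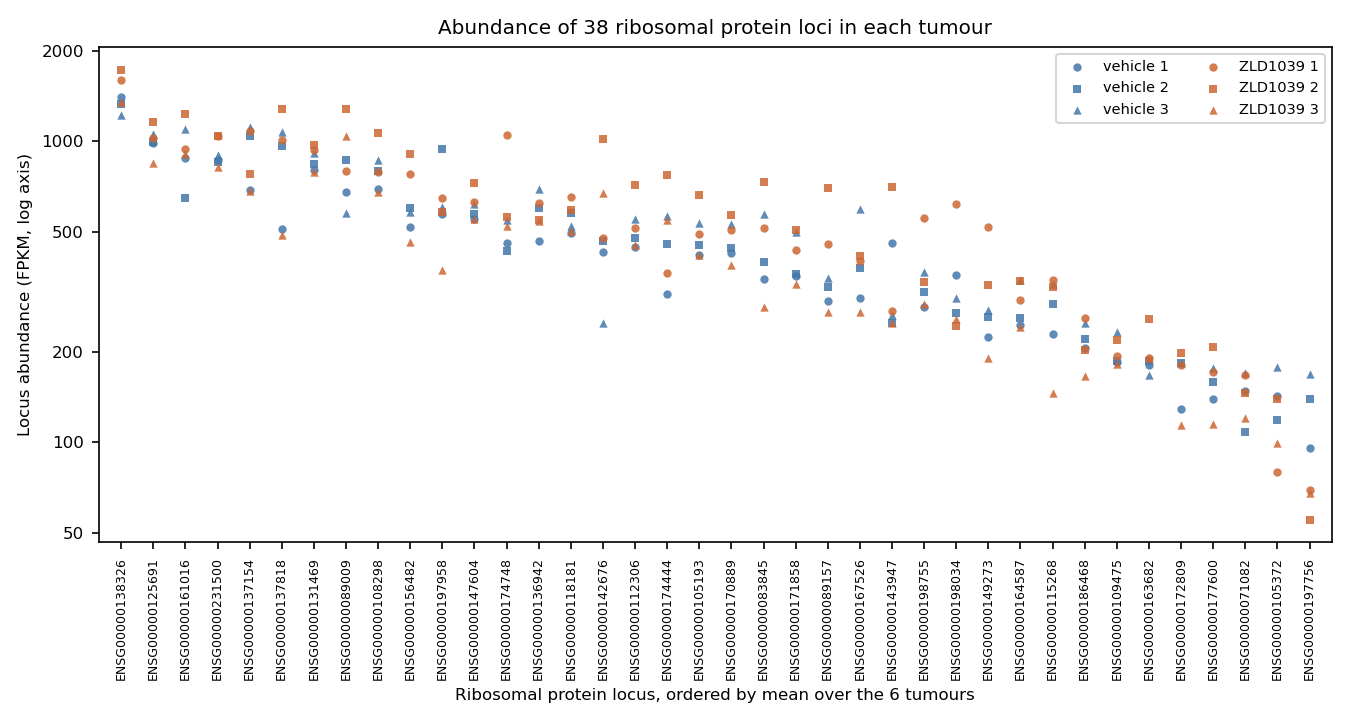
Abundance of the 38 ribosomal protein loci listed in all 6 tumours, in FPKM on a log axis, with each tumour as a point (blue for vehicle, orange for ZLD1039, shape for tumour number). Loci run from ENSG00000138326, with a mean of 1444 FPKM, to ENSG00000197756, with a mean of 99.2 FPKM, and the 2 colours overlap in 35 of the 38.

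The ribosomal protein loci lay high or low together in a tumour, and tumours of 1 group differed in this. Their summed abundance was 16953, 18784 and 20286 FPKM in vehicle tumours 1, 2 and 3 and 21704, 24307 and 16643 FPKM in ZLD1039 tumours 1, 2 and 3. As a share of all summed locus abundance this was 7.51%, 7.88% and 8.13% under vehicle and 8.97%, 9.03% and 7.10% under ZLD1039. ZLD1039 tumour 3 was the lowest of the 6 and ZLD1039 tumours 1 and 2 the highest, so the vehicle tumours lay inside the range of the treated ones. The group means were 7.84% ± 0.31 for vehicle and 8.37% ± 1.10 for ZLD1039 (SD, n = 3). In bulk tissue, fewer cells of a type and less RNA per cell cannot be told apart in such a share.

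The same pattern held locus by locus. Each locus was set against its own mean over the 6 tumours on the log2(FPKM + 1) scale. The median deviation of the 38 was -0.21, -0.08 and 0.11 in vehicle tumours 1, 2 and 3 and 0.10, 0.27 and -0.26 in ZLD1039 tumours 1, 2 and 3. Over all tested loci the median deviation stayed between -0.017 and 0.042. In vehicle tumour 1, 33 of the 38 loci lay below their own mean, and in ZLD1039 tumour 3 it was 35 of 38, or 92.1%, against 44.3% of all tested loci in that tumour. In ZLD1039 tumour 2 only 8 of the 38 lay below.

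Ranked within its own group, ZLD1039 tumour 3 had the lowest value of the 3 treated tumours for 32 of the 38 loci and the highest for 0. ZLD1039 tumour 2 had the highest for 26. Among vehicle tumours, tumour 1 was lowest for 27 and tumour 3 highest for 29. Over all tested loci, a tumour was the lowest of its group for 27.9% to 39.3% and the highest for 27.2% to 41.8%, the latter in vehicle tumour 3. Across the 6 tumours the median Pearson correlation of 703 pairs of ribosomal protein loci was 0.49, against -0.004 for pairs of a ribosomal protein locus with any other tested locus. These correlations rest on 6 libraries that all loci share, and they are given as a description.

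Only 3 of the 38 loci lay above their own mean in ZLD1039 tumour 3, and they were picked out after their values were seen. ENSG00000142676 deviated by 0.42, ENSG00000089009 by 0.30 and ENSG00000174444 by 0.19 on the log2 scale. The 8 loci below their own mean in ZLD1039 tumour 2 included all 3 that lie on chromosome 9. Compared with the mean of the other 5 tumours, ENSG00000137154 differed in that tumour by -0.21, ENSG00000136942 by -0.08 and ENSG00000197958 by -0.04. The 35 loci on other chromosomes had a median difference of 0.33 there, with 30 above 0. All 463 tested loci of chromosome 9 had a median of -0.32 in the same tumour, 79.9% of them below 0, against a median of 0.03 for the 10371 tested loci elsewhere. In ZLD1039 tumour 2 the chromosome 9 loci of the ribosome therefore lay between the other ribosomal protein loci and the rest of chromosome 9. Whether the level of the whole chromosome sets theirs was not tested.

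**Figure D2:**
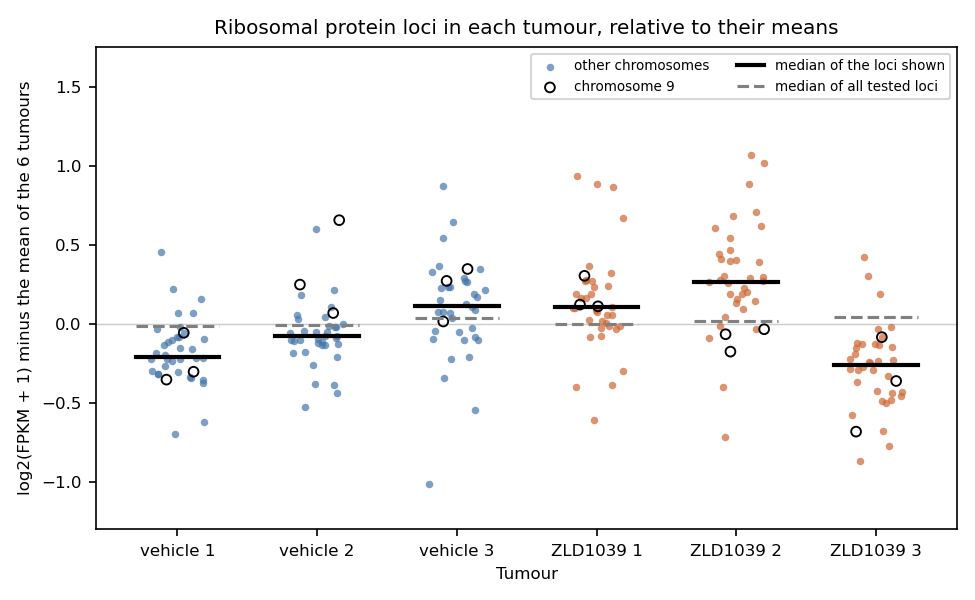
Deviation of each of the 38 ribosomal protein loci from its own mean over the 6 tumours, in log2(FPKM + 1), by tumour. Black bars are medians of the 38 and grey dashed bars medians of all tested loci, points are jittered sideways, and open circles mark the 3 loci on chromosome 9. Medians of the 38 run from -0.26 in ZLD1039 tumour 3 to 0.27 in ZLD1039 tumour 2, while the grey bars stay between -0.017 and 0.042.

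ZLD1039 tumour 1 had its own set of high loci. ENSG00000174748 (chromosome 3, 23958036 to 23965183, plus strand) measured 458, 433 and 548 FPKM in the vehicle tumours and 1049, 563 and 522 FPKM in the ZLD1039 tumours. ENSG00000149273 (chromosome 11, 75110530 to 75133324, plus strand) measured 224, 260 and 276 FPKM under vehicle and 520, 333 and 191 FPKM under ZLD1039. ENSG00000198755 (chromosome 6, 35436185 to 35438562, plus strand) measured 282, 316 and 367 FPKM under vehicle and 555, 340 and 288 FPKM under ZLD1039. In all 3 the first treated tumour was the highest of the 6 by a wide margin and the groups overlapped.

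In the first pair, a further start site was listed in all tumours but was much higher in that tumour than in the other 5. In ENSG00000174748 the start at 23958622 to 23958730 had 138 FPKM in ZLD1039 tumour 1 and 0.327 to 9.50 FPKM in the other 5 tumours. In ENSG00000149273 the start at 75111435 to 75111629 had 92.7 FPKM there and 0.564 to 1.72 FPKM elsewhere. Without these starts the leading start of each locus was still highest in ZLD1039 tumour 1, at 854 FPKM for ENSG00000174748 and 423 FPKM for ENSG00000149273.

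For ENSG00000198034 (chromosome X, 71475529 to 71497150, minus strand) the same tumour was high in its ends and internal events but not in its starts. The locus measured 361, 270 and 302 FPKM under vehicle and 618, 244 and 256 FPKM under ZLD1039. The transcript end at 71475529 to 71475904 had 372 FPKM in ZLD1039 tumour 1 and was listed in no other tumour. The spliced form of the intron between 71493822 and 71494903 had 615 FPKM in that tumour and 211 to 361 FPKM in the other 5. The summed starts of the locus were close together, at 222, 234 and 252 FPKM under vehicle and 243, 211 and 207 FPKM under ZLD1039. In 34 of the 38 loci the summed starts made up at least 95% of the locus value in every tumour.

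No ribosomal protein locus passed the adjusted threshold between ZLD1039 and vehicle. Of 39 tested, 0 reached an adjusted p under 0.05, where 0.0185% of all 10834 tested loci did (limma, Benjamini-Hochberg), and the smallest adjusted p was 0.881. At an unadjusted p under 0.05 there were 2 of the 39, against 4.94% of all tested loci. The median difference of the 38 was 0.10 on the log2 scale, against 0.02 over all tested loci, with 27 above 0 and 11 below. That is 71.1% above 0, against 52.8% of all tested loci. After quantile normalization the medians were 0.0078 for the 38 and 0.0082 for all tested loci, so the 38 no longer lay above the rest. Without ZLD1039 tumour 2 the median of the 38 was -0.03, and without ZLD1039 tumour 3 it was 0.26, so the sign of this small difference rested on ZLD1039 tumour 2.

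The precision of these comparisons was similar to that of other genes. The median SE of a log2 difference was 0.24 for the 38 and 0.23 over all tested loci, and the median 95% interval reached 0.556 to either side. The highest tumour exceeded the lowest 1.24-fold to 4.10-fold, with a median of 1.77-fold, and by at least 2-fold in 15 of the 38. The steadiest locus was ENSG00000131469 (chromosome 17), at 806, 842 and 916 FPKM under vehicle and 934, 975 and 789 FPKM under ZLD1039. With 3 tumours against 3, an exact permutation test of a single value cannot go below p = 0.1.

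The groups did not overlap in 3 of the 38 loci. In ENSG00000142676 and ENSG00000163682 every ZLD1039 tumour lay above every vehicle tumour, which was so for 5.75% of all tested loci. In ENSG00000197756 every ZLD1039 tumour lay below, as in 5.20% of all tested loci. Counts of 2 and 1 among 38 are near or below what these percentages give.

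ENSG00000197756 had the largest downward difference. It measured 95.8, 139 and 168 FPKM in vehicle tumours 1, 2 and 3 and 69.6, 55.2 and 67.9 FPKM in ZLD1039 tumours 1, 2 and 3. All treated tumours lay below all vehicle tumours, and the nearest pair was 69.6 and 95.8 FPKM. The log2 difference was -1.02 (SE 0.23, 95% interval -1.56 to -0.48), with an adjusted p of 0.881 (limma, Benjamini-Hochberg). It ran against the other loci in ZLD1039 tumours 1 and 2, where most of the 38 were above their means.

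ENSG00000142676 (chromosome 1, 24018269 to 24021885, plus strand) had the largest upward difference. It measured 428, 466 and 249 FPKM in the vehicle tumours and 478, 1020 and 674 FPKM in the ZLD1039 tumours. The groups were apart by little, 466 against 478 FPKM, while the treated tumours spread more than 2-fold. The log2 difference was 0.91 (SE 0.34, 95% interval 0.12 to 1.69), also with an adjusted p of 0.881 (limma, Benjamini-Hochberg). In ENSG00000163682 (chromosome 4, 39456484 to 39460568, minus strand) the values were 181, 186 and 167 FPKM under vehicle and 191, 256 and 190 FPKM under ZLD1039, a log2 difference of 0.24 (SE 0.18).

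The other large differences came from groups that overlapped. ENSG00000089009 (chromosome 12, 112844098 to 112848174, minus strand) measured 678, 871 and 577 FPKM under vehicle and 796, 1286 and 1040 FPKM under ZLD1039, a log2 difference of 0.55 (SE 0.24). ENSG00000174748, described above, differed by 0.50 (SE 0.28), ENSG00000089157 (chromosome 12) by 0.44 (SE 0.32) and ENSG00000149273 by 0.35 (SE 0.34). ENSG00000089157 ran from 271 FPKM in ZLD1039 tumour 3 to 698 FPKM in ZLD1039 tumour 2, with its vehicle tumours at 296, 327 and 352 FPKM in between. Without ZLD1039 tumour 1 the difference of ENSG00000149273 was -0.00083 and that of ENSG00000174748 was 0.18. That of ENSG00000089157 was 0.12 without ZLD1039 tumour 2 and 0.80 without ZLD1039 tumour 3.

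Downward, ENSG00000105372 measured 142, 118 and 179 FPKM under vehicle and 79.7, 139 and 99.2 FPKM under ZLD1039, a log2 difference of -0.48 (SE 0.25). ENSG00000197958 (chromosome 9, 130209953 to 130213684, minus strand) measured 575, 944 and 605 FPKM under vehicle and 646, 584 and 373 FPKM under ZLD1039, a difference of -0.41 (SE 0.28). ENSG00000167526 (chromosome 16) differed by -0.19 (SE 0.29) and ENSG00000137154 by -0.16 (SE 0.26), the latter with values of 688, 1044 and 1118 FPKM against 1085, 778 and 684 FPKM. ENSG00000167526 measured 302, 378 and 595 FPKM under vehicle and 401, 417 and 271 FPKM under ZLD1039. Without vehicle tumour 3 its difference was 0.077, and without ZLD1039 tumour 3 it was 0.0032, so leaving out either turned its sign. The difference of ENSG00000197958 was -0.17 without ZLD1039 tumour 3 and -0.18 without vehicle tumour 2, and that of ENSG00000105372 was -0.29 without ZLD1039 tumour 1. For ENSG00000137154 it ranged from -0.38 without vehicle tumour 1 to -0.017 without ZLD1039 tumour 3.

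**Figure D3:**
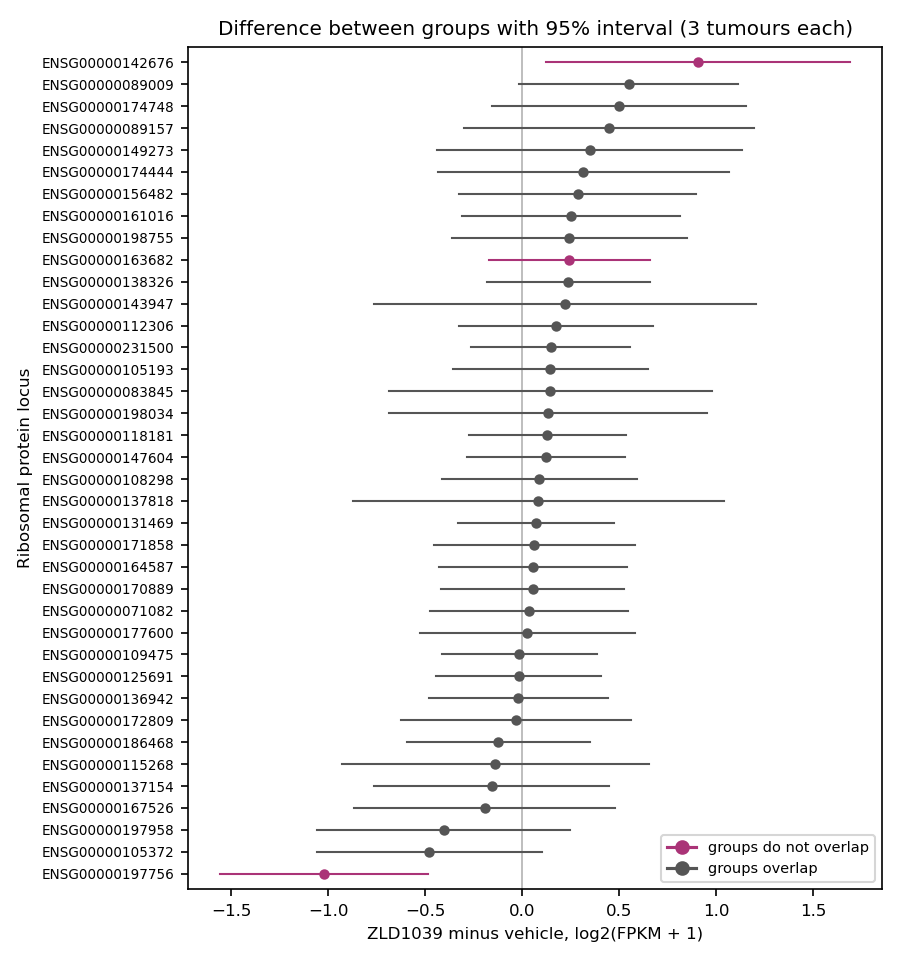
Difference between ZLD1039 and vehicle in log2(FPKM + 1) for each of the 38 ribosomal protein loci, with the 95% interval from limma and 3 tumours per group. The 3 loci whose groups do not overlap are drawn in purple, and the differences run from -1.02 in ENSG00000197756 to 0.91 in ENSG00000142676.

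Most ribosomal protein loci used 1 dominant start site. Starts were counted by the first exon listed for them, and a start's share is its FPKM over the summed starts of its locus. A single start was listed for 5 of the 38 loci and at least 2 for the other 33, with up to 7. In these 33 the leading start held a median of 95.2% of the start abundance, against 87.6% over 7337 loci with at least 2 starts. It held over 90% in 22 of the 33, or 66.7%, against 44.2% of those loci. The same start led in all 6 tumours in 27 of the 33, or 81.8%, against 62.8% overall.

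Per tumour the mean leading share of the ribosomal protein loci was 90.9%, 89.2% and 92.3% under vehicle and 90.4%, 91.7% and 92.0% under ZLD1039, against 82.4% to 84.1% over all loci. The group means, 90.8% ± 1.57 and 91.4% ± 0.83 (SD, n = 3), differed by less than the spread within a group. The first exon of the leading start was short, with a median of 110.5 bases against 238 bases over the tested loci. It was at most 100 bases long in 18 of the 38, or 47.4%, against 14.0%, and the shortest had 21 bases. The abundance of the loci differs from that of most other loci, and its part in these shares was not tested.

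The most concentrated loci with several starts were ENSG00000125691, at a mean leading share of 100%, ENSG00000138326, also at 100%, ENSG00000231500 at 99.9%, ENSG00000137818 at 99.8% and ENSG00000163682 at 99.7%. The least concentrated was ENSG00000089009 at 54.4%, followed by ENSG00000089157 at 68.0%, ENSG00000197756 at 74.0%, ENSG00000105372 at 75.2% and ENSG00000186468 at 83.1%. In ENSG00000089157 the leading start, at 120638886 to 120639014, held 52.2%, 72.0% and 80.2% under vehicle and 87.3%, 58.8% and 57.8% under ZLD1039. Its share followed no group.

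Of 63 start shares tested in 27 of these loci, 0 reached an adjusted p under 0.05, as did 0% of the 21321 tested in all, and the smallest adjusted p was 0.764 (limma, Benjamini-Hochberg). An unadjusted p under 0.05 was reached by 3, against 2.49% of all tested starts. The groups did not overlap in 3 shares that were higher under ZLD1039 and in 4 that were lower, against 4.11% and 3.96% of all tested starts. These 7 belonged to 4 loci, and shares of 1 locus depend on each other because they sum to 100%. They are described in turn.

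In ENSG00000089009 the start at 112847215 to 112847400 had nearly the same abundance in the vehicle tumours, 344, 340 and 352 FPKM, and 119, 160 and 84.0 FPKM in the ZLD1039 tumours. All treated tumours lay far below all vehicle tumours, whereas for the locus as a whole the mean was higher under ZLD1039. The log2 difference of this event was -1.55 (SE 0.25), with an adjusted p of 0.339 (limma, Benjamini-Hochberg). That was the smallest adjusted p of the 435 events of ribosomal protein loci tested. As a share of the starts it held 50.8%, 39.1% and 61.1% under vehicle and 15.0%, 12.4% and 8.07% under ZLD1039. The difference was -38.5 percentage points (95% interval -67.7 to -9.30), with an adjusted p of 0.764 (limma, Benjamini-Hochberg).

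The start at 112847007 to 112847445 led in all 3 treated tumours and in vehicle tumour 2. It held 37.8%, 50.9% and 23.3% under vehicle and 54.3%, 66.5% and 42.7% under ZLD1039, so its groups overlapped. The start at 112846854 to 112847445 was listed in ZLD1039 tumour 1, at 26.6%, and in ZLD1039 tumour 3, at 6.99%, and in no other tumour. The start at 112847391 to 112847445 held 41.4% in ZLD1039 tumour 3 and between 4.09% and 21.1% in the others. On the minus strand these starts share their first base, 112847445. The first exons of these starts overlap each other, and the abundance given to each depends on how overlapping transcripts were divided.

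ENSG00000186468 (chromosome 5, 81571114 to 81574396, minus strand) had 2 starts. The upstream one, at 81574139 to 81574396, held 78.6%, 75.8% and 71.8% under vehicle and 91.4%, 85.6% and 95.1% under ZLD1039. It led in all 6 tumours, and its share was higher in every treated tumour than in any vehicle tumour. The difference was 15.3 percentage points (95% interval 4.82 to 25.8), with an adjusted p of 0.764 (limma, Benjamini-Hochberg). The downstream start, at 81573750 to 81573962, had 44.1, 53.2 and 70.3 FPKM under vehicle and 18.0, 25.4 and 8.10 FPKM under ZLD1039. The abundance of the locus differed little between the groups, by -0.13 on the log2 scale (SE 0.20). In ZLD1039 tumours 1 and 2 the summed starts were only 210 and 176 FPKM, of locus values of 259 and 202 FPKM. In the vehicle tumours and ZLD1039 tumour 3 the summed starts equalled the locus value. Part of the locus thus had no listed start in 2 treated tumours, and its part in the difference of shares was not tested.

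In ENSG00000197756, the locus with the largest downward difference, the start at 217362912 to 217363600 held 46.4%, 24.1% and 26.8% under vehicle and 96.0%, 99.3% and 61.1% under ZLD1039. The difference was 53.0 percentage points (95% interval 19.4 to 86.6), with an adjusted p of 0.764 (limma, Benjamini-Hochberg). A start upstream of it, at 217362648 to 217362719, held 61.3% in vehicle tumour 2 and 72.9% in vehicle tumour 3 and was listed in no other tumour. It was thus missing from vehicle tumour 1 as well as from the treated tumours. In vehicle tumour 1 and ZLD1039 tumour 3 a longer first exon with the same first base, ending at 217364121, held 53.6% and 38.9%. By first base, vehicle tumour 1 was thus like the treated tumours, with all of its listed starts at 217362912. The difference in share is therefore partly between first exons that differ only in their end.

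In ENSG00000142676, the locus with the largest upward difference, the start at 24018269 to 24018319 held 81.3%, 82.5% and 14.1% under vehicle and 89.7%, 94.5% and 92.6% under ZLD1039. The start at 24018325 to 24018550 held 1.66%, 1.46% and 2.00% under vehicle and 1.27%, 0.617% and 0.967% under ZLD1039, without overlap but at a low level throughout. The start at 24018796 to 24019249 had most of the remainder, with 73.0, 74.7 and 209 FPKM under vehicle and 43.3, 49.6 and 43.2 FPKM under ZLD1039. Vehicle tumour 3 differed from the other 5, and it was also the tumour with the lowest abundance of the locus. It was the only tumour with a listed retained form of the intron from 24020403 to 24021150, at 7.02%.

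Counted by first exon, the leading start differed between tumours in 6 loci. In 0 of the 33 did the groups part completely, with 1 start leading throughout vehicle and another throughout ZLD1039, against 0.423% of the 7337 loci with at least 2 starts. In ENSG00000083845 (chromosome 19, 58857818 to 58906173, plus strand) 3 starts led in different tumours. The start at 58896026 to 58896363 held 92.5% and 93.6% in vehicle tumours 1 and 2 and 58.9% in ZLD1039 tumour 1. The start at 58897767 to 58897989 held 99.5% in vehicle tumour 3 and 99.4% in ZLD1039 tumour 2. In ZLD1039 tumour 3 a start at 58857818 to 58857858 held 84.3% and was listed in no other tumour.

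In ENSG00000105372 a pair of starts shared their first base at 42363988. The one with the longer first exon, ending at 42364564, held 81.1%, 71.2% and 2.28% under vehicle and 50.1%, 56.0% and 4.47% under ZLD1039. Vehicle tumour 3 and ZLD1039 tumour 3 used the shorter first exon, at 97.7% and 95.4%. In ENSG00000163682 vehicle tumour 3 alone used the start at 39460014 to 39460508, at 100%, where the other 5 tumours had the start at 39460511 to 39460568 at 98.2% to 100%. In these 3 loci the switches divided tumours of both groups or set 1 tumour apart. In ENSG00000089009 and ENSG00000197756, described above, 1 start led in all 3 treated tumours and the vehicle tumours differed among themselves. In ENSG00000197756 the start that led in vehicle tumour 1 had the same first base as the one that led in the treated tumours.

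**Figure D4:**
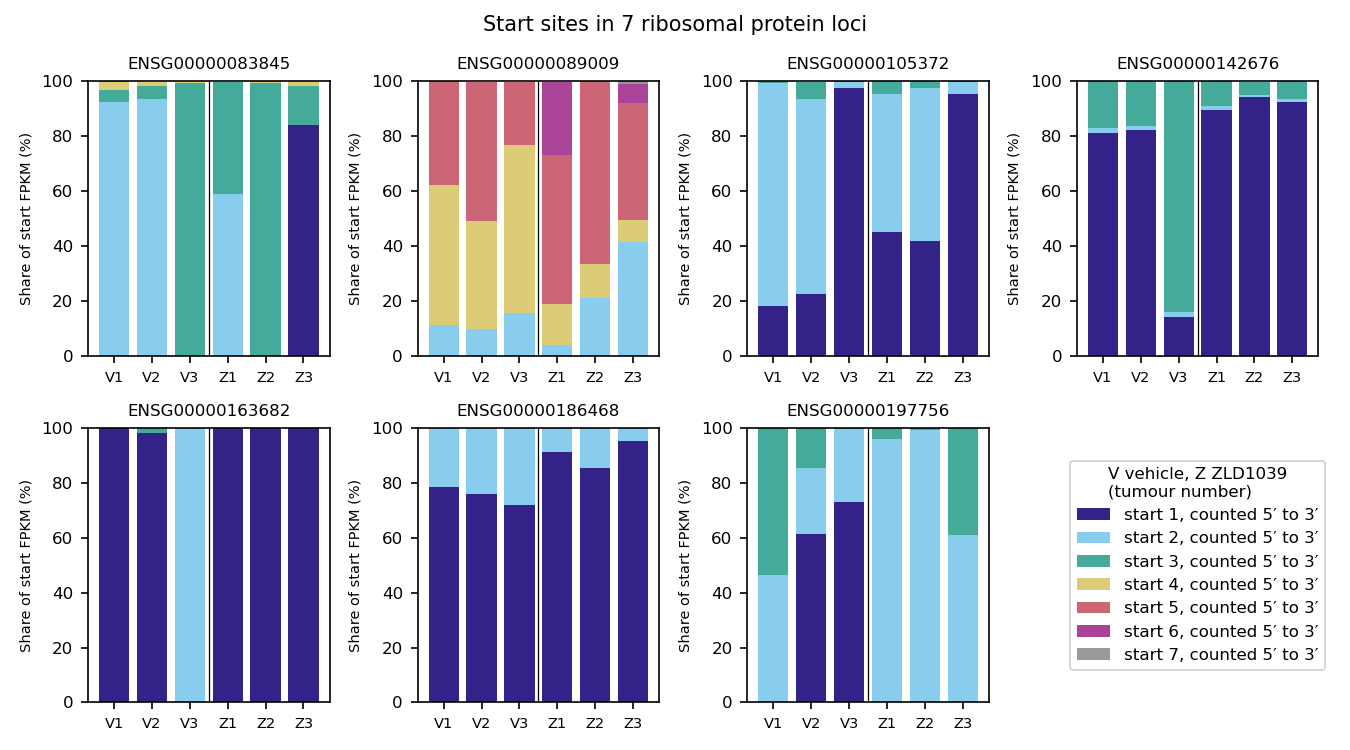
Share of each start site in the summed start FPKM of its locus, as stacked bars from 0 to 100% for the 6 tumours, in the 6 loci whose leading start differed between tumours and in ENSG00000186468. Starts are numbered within each panel by the lower coordinate of the first exon, rising on the plus strand and falling on the minus strand. On the minus strand this is the last base of the first exon, so the numbers there need not follow the order of the transcription starts. The start drawn in yellow in ENSG00000089009 holds 39.1% to 61.1% under vehicle and 8.07% to 15.0% under ZLD1039.

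Few transcript ends could be compared. Of 40 listed ends of the ribosomal protein loci, 4 could be tested, in 2 loci, and 0 passed, as did 0% of the 4610 ends tested in all. An unadjusted p under 0.05 was reached by 0 of the 4, against 2.86% of all. The smallest adjusted p was 0.774 (limma, Benjamini-Hochberg). In ENSG00000170889 (chromosome 19) the end at 54711266 to 54711515 held between 98.2% and 99.3% in every tumour. In ENSG00000198034 the end at 71491892 to 71492622 held at least 99.8% in 5 tumours and 39.7% in ZLD1039 tumour 1, the tumour with the additional end described above.

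Most single introns of ribosomal protein loci were almost fully spliced, though their mean retention was near that of the series. Retention is the FPKM of the form that keeps the intron over the sum of both forms. Of 49 single introns listed, 40 in 22 loci had at least 1 FPKM in total and a value in all tumours. Mean retention was under 1% in 24 of the 40, or 60%, against 33.9% of 5228 introns of the series, and the median was 0.36% against 3.26%. It was over 99% in 6, or 15%, against 6.77%. In introns at these extremes 1 of the forms was often not listed at all, and both forms were listed in at least 1 tumour for 21 of the 40.

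Mean retention over the 40 introns was 19.6%, 18.9% and 19.0% in the vehicle tumours and 18.5%, 19.1% and 17.5% in the ZLD1039 tumours. The means were 19.2% ± 0.42 and 18.4% ± 0.79 (SD, n = 3), and the groups overlapped. The mean over the 5228 introns of the series was close to these values, at 19.4% ± 0.58 under vehicle and 18.9% ± 0.53 under ZLD1039. Much of the mean over the 40 introns came from the 6 retained at over 99%. Among these 6, the introns of ENSG00000149273 had the same retained values, with a mean of 1.39 FPKM. Set against the spliced form of its intron between 75112777 and 75113396, that retained form made up only 0.00047% to 2.51%. Another of the 6, between 39924401 and 39926298 in ENSG00000105193, had a retained form of 0.799 to 3.05 FPKM. Against the spliced form of the intron between 39924401 and 39926247, it made up only 0.200% to 0.709%. Weighted by abundance, retained forms made up 10.1%, 7.67% and 10.2% under vehicle and 8.34%, 8.34% and 9.74% under ZLD1039. Over the series these shares were 10.9%, 11.3% and 11.2% under vehicle and 9.52%, 10.9% and 9.61% under ZLD1039, above the ribosomal protein loci in 5 tumours and below them in ZLD1039 tumour 3. The retained forms of the ribosomal protein loci summed to 1224 to 1941 FPKM per tumour. Of this, 649 to 1233 FPKM came from the intron between 146016692 and 146016756 in ENSG00000161016. Another 270 to 595 FPKM came from the intron between 89628006 and 89628148 in ENSG00000167526. Neither had a spliced form listed in any tumour, so the weighted shares rest mostly on these 2 introns. Of 25 shares of introns, intron runs and exons tested, 0 reached an adjusted p under 0.05, as did 0% of 13274 in all, and the smallest adjusted p was 0.719 (limma, Benjamini-Hochberg). At an unadjusted p under 0.05 there were 0, against 2.09% of all. The median 95% interval reached 11.1 percentage points to either side.

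A single intron divided the tumours across the groups. In ENSG00000137818 (chromosome 15, 69745123 to 69748255, plus strand) the intron between 69746060 and 69747509 was retained at 31.1%, 8.35% and 8.02% under vehicle and at 7.89%, 7.43% and 28.8% under ZLD1039. Vehicle tumour 1 and ZLD1039 tumour 3, the tumours with the lowest ribosomal protein share, were the 2 high ones. The retained form had 159 and 141 FPKM in them and 78.2 to 93.0 FPKM in the other 4. The spliced form had 351 and 347 FPKM in them and 862 to 1160 FPKM in the other 4. The same locus had 512 and 487 FPKM in these tumours and 967 to 1279 FPKM in the others.

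In ENSG00000198755 the 95-base intron between 35437062 and 35437158 was retained at 20.7%, 19.2% and 17.5% under vehicle and at 21.4%, 28.6% and 27.1% under ZLD1039. The treated tumours were all above the vehicle tumours, though 21.4% and 20.7% lie close, and the mean difference was 6.58 percentage points (95% interval -13.9 to 27.1). How often groups part over all tested introns was not counted. The same retained form was also set against the spliced form of the 353-base intron from 35436804 to 35437158. It then made up 5.75%, 5.77% and 4.37% under vehicle and 3.33%, 8.08% and 5.16% under ZLD1039, with groups that overlapped. The groups parted the other way in an intron of ENSG00000105193, between 39924401 and 39926247, too little retained to be tested. Its retention was 0.391%, 0.709% and 0.577% under vehicle and 0.362%, 0.211% and 0.200% under ZLD1039. In ENSG00000231500 the 109-base intron between 33243843 and 33243953 was retained at 1.16% to 2.73% in every tumour, of a total of 912 FPKM. In ENSG00000174444 (chromosome 15) the intron between 66795088 and 66795396 was retained at 5.69%, 1.25% and 3.36% under vehicle and at 0.403%, 0.00083% and 2.69% under ZLD1039, with groups that overlapped.

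In 2 of the introns and intron runs with the smallest unadjusted p, ZLD1039 tumour 3 alone stood apart. In ENSG00000174444 the 88-base intron between 66793443 and 66793532 was retained at 100% in 5 tumours and 14.9% in ZLD1039 tumour 3. Its spliced form was listed in ZLD1039 tumour 3 alone, and its retained form had only 0.0041 FPKM in ZLD1039 tumour 2. Set against the spliced form of the 269-base intron between 66793443 and 66793713, the same retained form made up 0.00053% to 6.07%. An intron run of ENSG00000198034 (71493822 to 71494903) was at 100% in 5 tumours and 55.9% in ZLD1039 tumour 3, the only tumour in which its other form was listed. As a single intron between the same positions, with the same retained values, it was retained at only 0.448% to 13.6%. In ENSG00000167526 the intron between 89627471 and 89627635 was retained at 2.51%, 4.45% and 0.000058% under vehicle and at 5.04%, 2.33% and 5.73% under ZLD1039.

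Exon inclusion did not part the groups. Of 53 single exons listed, 44 in 21 loci could be used. Mean inclusion was under 1% in 15, over 99% in 15 and in between in 14. Each of the first pair is 34.1% of the 44, against 30.5% under 1% and 24.6% over 99% among 18063 exons of the series. Over the 44 exons it was 47.4%, 48.9% and 51.2% in the vehicle tumours and 53.0%, 49.8% and 47.5% in the ZLD1039 tumours. The means were 49.2% ± 1.87 and 50.1% ± 2.77 (SD, n = 3), and the groups overlapped. Of 8 runs of exons, 6 could be used and 0 lay between 1% and 99%.

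The most abundant locus had 2 very short exons with uneven inclusion. In ENSG00000138326 a 22-base exon (79799962 to 79799983) was included at 42.5%, 0.529% and 17.0% under vehicle and at 42.0%, 0.400% and 3.72% under ZLD1039. The first tumour of each group was high and the second near 0. An 18-base exon of the same locus (79797723 to 79797740) was included at 15.9% in vehicle tumour 2 and in no other tumour. That share was of a minor part of the locus, 1.33 FPKM with the exon against 7.06 FPKM without it. The locus had 1336 FPKM in that tumour. For the run of exons from 79797723 to 79799983, the same 1.33 FPKM stood against 1327 FPKM of the form that skips the run. The leading start of this locus held close to 100% in all tumours, so the tumours differed mainly in the 22-base internal exon and not in the start.

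In ENSG00000089157 the 217-base exon at 120636357 to 120636573 was included at 99.6%, 98.5% and 99.8% under vehicle and at 84.8%, 84.9% and 99.6% under ZLD1039. ZLD1039 tumours 1 and 2 were low and the third was like the vehicle tumours. The difference was -9.53 percentage points (95% interval -20.7 to 1.61), with an adjusted p of 0.719 (limma, Benjamini-Hochberg), and the 2 forms together had 17.3 FPKM. The same skipping form was also set against a 186-base exon at 120636357 to 120636542, with a mean total of 264 FPKM. That exon was included at 97.9% and 98.8% in ZLD1039 tumours 1 and 2 and at 99.96% to 99.99% in the others. The lower shares of the 217-base exon thus concern a minor part of the locus. The exon at 120636657 to 120636803 of that locus was included at 100% in vehicle tumour 3 and ZLD1039 tumours 1 and 2, and at 93.4%, 92.2% and 92.8% in the other 3.

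A further 3 exons differed in a single tumour. In ENSG00000083845 the 158-base exon at 58898549 to 58898706 was included at 97.1% in ZLD1039 tumour 1 and at 0% in the other 5. A longer exon that ends at the same base, the 308-base exon at 58898399 to 58898706, was included at 95.7% to 99.9% in every tumour. In ENSG00000164587 (chromosome 5) the exon at 149824042 to 149824204 was included at 11.6% in vehicle tumour 3 and at 0% elsewhere. In ENSG00000198034 the exon at 71494157 to 71494285 was included at 7.91% in ZLD1039 tumour 3 and at 0% elsewhere. A share of 0% here means that the form was not listed.

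**Figure D5:**
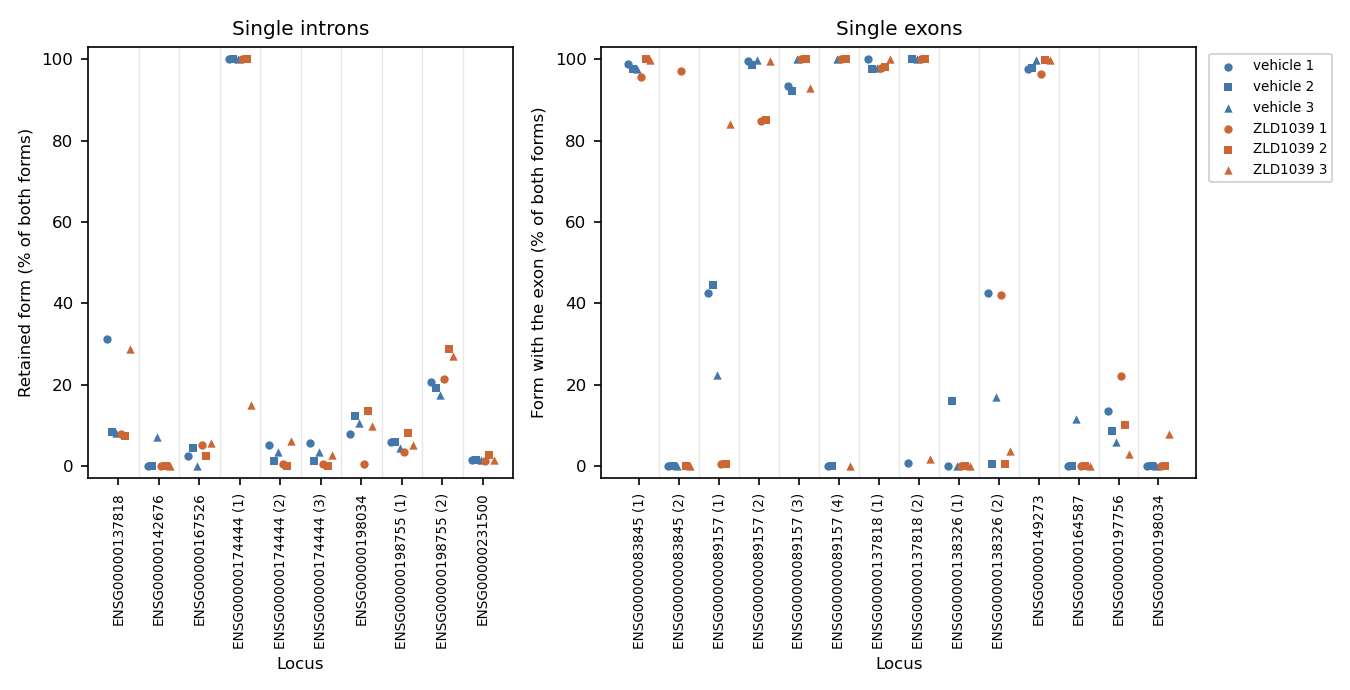
Retention of the 10 single introns and inclusion of the 14 single exons of ribosomal protein loci that were tested, in percent of both forms, with each tumour as a point (blue for vehicle, orange for ZLD1039, shape for tumour number). Loci with several items carry a number in brackets, in order of position. The intron of ENSG00000137818 is at 31.1% and 28.8% in vehicle tumour 1 and ZLD1039 tumour 3 and at 7.43% to 8.35% in the other 4.

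Taken event by event, 435 events of the ribosomal protein loci reached a mean of 1 FPKM in a group and were tested. Of these, 0 reached an adjusted p under 0.05, against 0.0364% of 85258 events in all (limma, Benjamini-Hochberg). An unadjusted p under 0.05 was reached by 7, against 4.72% of all events, and the 7 lay in 4 loci. These were starts of ENSG00000089009, ENSG00000186468, ENSG00000142676 and ENSG00000197756, a skipped exon of ENSG00000197756 and a spliced intron of ENSG00000142676. Events of 1 locus share transcripts, so they do not count as separate observations. Without vehicle tumour 1, 1 event passed, the start of ENSG00000197756 at 217362648 to 217362719, which that tumour lacked as the treated tumours did.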

How the data were processed

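RNA-seq was read from the event lists of 6 tumours, 3 vehicle and 3 ZLD1039, grouped and numbered by their titles. The authors deposited an FPKM value per transcript event, per the file headers. The tools bcl2fastq (2.17.1.14) and HTSeq (0.6.1) and the build mm10 are named in the submitters' processing notes, and the human positions contradict that build. No aligner, assembler or event caller is given in the sources used here.

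Events were matched by start and end, and events missing from a tumour's list were set to 0 in loci listed elsewhere. Features that reached a mean of 1 FPKM in either group were compared by limma (3.58.1, R 4.3.3) on log2(FPKM + 1), a scale that understates the change of low values. The fit had a mean-variance trend, and p-values were adjusted by Benjamini-Hochberg over all features, with a threshold of 0.05. Shares were compared in percent where both forms together averaged 1 FPKM or more and the mean share lay between 1% and 99%. The fits were tested on simulated data.

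The members, the lists and the locus value were chosen with earlier results of these data known. Members were named by highest and lowest mean, largest difference up and down, missing values, smallest p per kind of item, and highest and lowest leading start share. A part of that rule, and lists of other translation genes and of cell type markers, rest on gene symbols and were not used here.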

Additional observations from a re-analysis of the deposited data

How the results depend on the processing

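The count of ribosomal protein loci past the adjusted threshold was 0 in the main test and under all 16 alternatives tried (pseudocount, filter, scaling, locus value, trend, replicate block and each tumour left out). The counts of start, end, exon and intron shares were also 0 under all of theirs. The count of single events was 0, and 0 to 1 with a tumour left out, the 1 without vehicle tumour 1. The median log2 difference of the 38 loci ranged from -0.028 to 0.26 with a tumour left out and from 0.0078, under quantile normalization, to 0.11 under the others, while that of all tested loci stayed between 0.0019 and 0.036, with 0.0082 under quantile normalization. The sign turned without 1 tumour in ENSG00000167526, with a range of -0.41 to 0.077 over the tumours left out, and in ENSG00000149273, with a range of -0.00083 to 0.72. For these the cause was not tested. The difference in mean leading start share, 0.59 percentage points, was 5.56 points when the start that leads by mean over the 6 tumours was used in every tumour, because tumours with another leading start then count low, and -0.22 to 1.35 points with a tumour left out. Of 318 alternatives for 29 named loci and sites, 0 gave an adjusted p under 0.05 (limma, Benjamini-Hochberg).

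Tumours with the same number did not deviate together. The correlations of their deviations were -0.032, 0.020 and -0.061, and 0 of 6 tumours correlated best with its own number in the other group. The labels do not say whether the numbers pair tumours. These correlations cannot decide it, because a pairing with a small effect on abundance could give the same values. With the replicate block 0 members were called in each of the 5 tests. Depth is unknown, and without it low values carry no counting error. Loci with near-identical copies, reads of the mouse host and the division of overlapping transcripts by the authors' assembler limit the levels of single loci and starts.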
